A study of Mus musculus with 12 samples.

Results

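Genes that encode the proteasome were examined in peak lists from ATAC-seq, an assay in which a transposase cuts accessible DNA and cut-rich stretches are called as peaks. The members were the protein-coding autosomal genes whose symbol starts with Psma, Psmb, Psmc, Psmd, Psme or Psmg followed by a number, without Psmb8 and Psmb9. In the RefSeq annotation of GRCm38 these were 47 of 20661 protein-coding autosomal genes. Of them, 17 encode subunits of the 20S core (8 in the alpha rings and 9 in the beta rings) and 17 encode subunits of the 19S cap (6 ATPases and 11 others). A further 2 are assembly chaperones of the cap, 4 are assembly chaperones of the core and 5 are activators. Psmc3ip, a cofactor of meiotic recombination, and Psme3ip1, which encodes a partner of an activator, only share the prefix.

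The proteasome degrades proteins that carry ubiquitin chains. The cap binds, unfolds and feeds these proteins into the barrel-shaped core, where the beta rings cut them into peptides. Blood cells can also build an immunoproteasome from interferon-inducible subunits, and proteasome inhibitors are used against blood cancers.

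Each of the 12 libraries came from 150000 FACS-sorted CD45.2+ cells of the bone marrow, in the C57BL/6 strain. There were 4 groups of 3 libraries. Control cells carried only the CD45.2 allele, and the leukaemic groups were BN1 (CD45.2 with BRD9-NUTM1), MA9 (CD45.2 with MLL-AF9) and ME (CD45.2 with MLL-ENL), each named for its fusion gene. How the fusions were introduced, the age of the mice and whether the 3 libraries of a group came from separate mice are not given in the sources used here, so the spread between libraries may be technical. CD45.2+ is the only sort given, and Control is marrow of mixed cell types by its markers. A peak in all 3 Control libraries was listed at a gene end for 6 of 6 B-cell, 6 of 6 neutrophil and 6 of 6 erythroid markers, against 0 of 6 for each list in BN1 and in ME. The MA9 libraries held 1 of 6 B-cell, 2 of 6 neutrophil and 1 of 6 erythroid markers in all 3 lists. Megakaryocyte markers numbered 3 of 4 in Control, 1 in MA9 and 0 in BN1 and ME. Other lists had another order. The MA9 libraries held 4 of 6 progenitor markers and the Control libraries 1, like ME, with 0 for BN1. Monocyte markers numbered 4 of 5 for MA9, 3 for Control, 1 for ME and 0 for BN1, and T-cell markers 1 of 6 in every group. Of 6 general blood-cell markers, Control and MA9 held 6, ME 3 and BN1 1, and Ptprc, which encodes CD45 itself, had a peak in every Control and MA9 library and in no BN1 or ME library. Of all protein-coding autosomal genes, 43.0% had a peak in all 3 Control libraries and 45.4% in all 3 MA9 libraries. The shares were 26.9% in ME and 10.1% in BN1, so low marker counts in BN1 are near that of genes in general. The part of cell composition in the results was not tested.

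The deposited lists differed in length. On the autosomes they held 25541 to 28023 peaks in Control, 3011 to 4258 in BN1, 31968 to 33588 in MA9 and 8546 to 9663 in ME. Read numbers are not in the lists, so depth is unknown. Where a list lacks a region, that region was not called and is not thereby shown to be closed. A member is said to have a peak where any base of a peak lay within 1 kb of either end of the gene. The height of its strongest such peak is given as a percentile, the share of autosomal peaks in the same list with a lower or equal −log10 p. Percentiles refer to lists of different lengths and are compared within a list. In bulk samples, fewer cells with an open region and less access per cell cannot be told apart.

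The regions at issue lay mostly at gene starts. A RefSeq promoter window (GRCm38.p6), from 250 bases before to 50 after a start, was given for 39 of the 47 members, and 7 windows are shown because they stand for the patterns below. In capitals are the CCAAT box, the GC box GGGCGG, the ETS core CCGGAA and the YY1 core GATGGCG on either strand, so that their reverse complements are capitalised too. Psma2 (chr13:14612992-14613291, plus strand), Psmc4 (chr7:28050043-28050342, minus strand), Psme2 (chr14:55591052-55591351, minus strand) and the downstream start of Psma6 (chr12:55398575-55398874, plus strand) were overlapped by a peak in 12 of 12 libraries. Psma5 (chr3:108256676-108256975, plus strand) and Psmd4 (chr3:95042565-95042864, minus strand) were overlapped in 9, all but BN1. Psmd6 (chr14:14120896-14121195, minus strand) was overlapped in 6, those of Control and MA9.
Psma2: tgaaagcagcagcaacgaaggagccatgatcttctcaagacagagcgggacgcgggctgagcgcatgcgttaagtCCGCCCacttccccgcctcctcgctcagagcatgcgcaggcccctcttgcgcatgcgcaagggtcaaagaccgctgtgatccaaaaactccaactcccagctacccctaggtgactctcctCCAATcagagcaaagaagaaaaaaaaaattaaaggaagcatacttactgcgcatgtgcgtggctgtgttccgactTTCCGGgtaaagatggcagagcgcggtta
Psmc4: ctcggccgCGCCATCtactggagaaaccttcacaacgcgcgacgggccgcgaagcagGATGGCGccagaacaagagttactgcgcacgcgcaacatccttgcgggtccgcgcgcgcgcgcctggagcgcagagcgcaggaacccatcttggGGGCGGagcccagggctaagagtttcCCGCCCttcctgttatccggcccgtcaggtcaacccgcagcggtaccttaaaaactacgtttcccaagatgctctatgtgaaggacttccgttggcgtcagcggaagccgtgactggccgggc
Psme2: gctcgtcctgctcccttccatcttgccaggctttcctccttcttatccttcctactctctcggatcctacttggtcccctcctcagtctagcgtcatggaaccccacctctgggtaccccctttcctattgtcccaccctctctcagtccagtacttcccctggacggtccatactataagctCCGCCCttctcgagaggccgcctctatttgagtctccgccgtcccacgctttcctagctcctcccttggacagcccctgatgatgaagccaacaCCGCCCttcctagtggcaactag
Psma6: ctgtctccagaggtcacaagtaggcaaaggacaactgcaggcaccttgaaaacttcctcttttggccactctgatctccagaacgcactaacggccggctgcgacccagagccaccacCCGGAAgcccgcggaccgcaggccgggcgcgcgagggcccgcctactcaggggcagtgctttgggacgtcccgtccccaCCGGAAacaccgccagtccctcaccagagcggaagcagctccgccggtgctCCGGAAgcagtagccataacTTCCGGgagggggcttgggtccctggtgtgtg
Psma5: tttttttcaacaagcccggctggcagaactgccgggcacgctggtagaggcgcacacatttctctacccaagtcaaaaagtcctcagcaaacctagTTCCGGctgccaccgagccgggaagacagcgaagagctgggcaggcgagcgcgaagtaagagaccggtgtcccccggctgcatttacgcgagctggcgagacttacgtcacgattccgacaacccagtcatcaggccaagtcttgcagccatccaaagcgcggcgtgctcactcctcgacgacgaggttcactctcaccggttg
Psmd4: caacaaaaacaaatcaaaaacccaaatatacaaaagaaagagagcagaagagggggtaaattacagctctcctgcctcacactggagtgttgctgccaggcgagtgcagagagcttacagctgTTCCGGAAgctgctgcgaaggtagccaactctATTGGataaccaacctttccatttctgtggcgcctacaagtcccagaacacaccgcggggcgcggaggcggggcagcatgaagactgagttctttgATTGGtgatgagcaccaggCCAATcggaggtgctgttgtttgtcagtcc
Psmd6: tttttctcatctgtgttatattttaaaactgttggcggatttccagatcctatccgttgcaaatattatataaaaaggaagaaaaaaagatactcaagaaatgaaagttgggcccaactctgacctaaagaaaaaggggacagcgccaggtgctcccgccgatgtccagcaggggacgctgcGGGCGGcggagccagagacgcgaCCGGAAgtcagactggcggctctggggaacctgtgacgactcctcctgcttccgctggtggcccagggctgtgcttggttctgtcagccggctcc

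The core of a binding site for ETS factors, CCGGAA, was found in the windows of 20 of 39 members (51.3%), beside 21.4% of 16456 genes with a window. The Psma6 window held it 4 times. GATGGCG, the core of a YY1 site, was found in 6 (15.4%, beside 5.06%), and Psmc4 held it 2 times. For GGGCGG, the GC box, the shares were 56.4% and 50.2%, and for CCAAT they were 35.9% and 42.3%. The antioxidant response element in the form TGANNNNGC was found in 59.0% of members and 45.5% of genes. A TATA box (TATAAA) was found in 7.69% and 15.0%, and the NRF1 palindrome, searched as GCGCA followed within 2 bases by the letters TGCGC, in 5.13% and 1.72%. These are matches of letters on both strands and not shown binding sites, and overlapping matches were all counted. The median GC content was 58.5% in the members' windows and 56.7% over all genes.

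The 6 members with a window and a gene-end peak in all 12 libraries were Psma2, Psmb3, Psmc4, Psmd8, Psme2 and Psme3ip1. Of these, 2 held CCGGAA, 5 held GGGCGG and 3 held CCAAT. Psma2 and Psme3ip1 had all of these 3 motifs, whereas Psmc4, Psmd8 and Psme2 had GGGCGG alone of them and Psmb3 had CCAAT alone. The downstream Psma6 window, which is not at an end of the gene model, had a peak in 12 libraries too and held only CCGGAA of the 3.

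Of the 41 members with a peak in any library, 34 had a RefSeq start in the table. In 31 of these the median summit lay within 250 bp of that start. The median offset over the 34 was −32.5 bp, with 29 upstream and 5 downstream. In Control replicate 1 the summit lay within 250 bp for 91.2% of the members and for 74.9% of 7560 other genes. The exceptions included Psma3, whose gene-end peak lay at −5466.5 bp, and Psmb10, at 1281.5 bp.

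**Figure D1:**
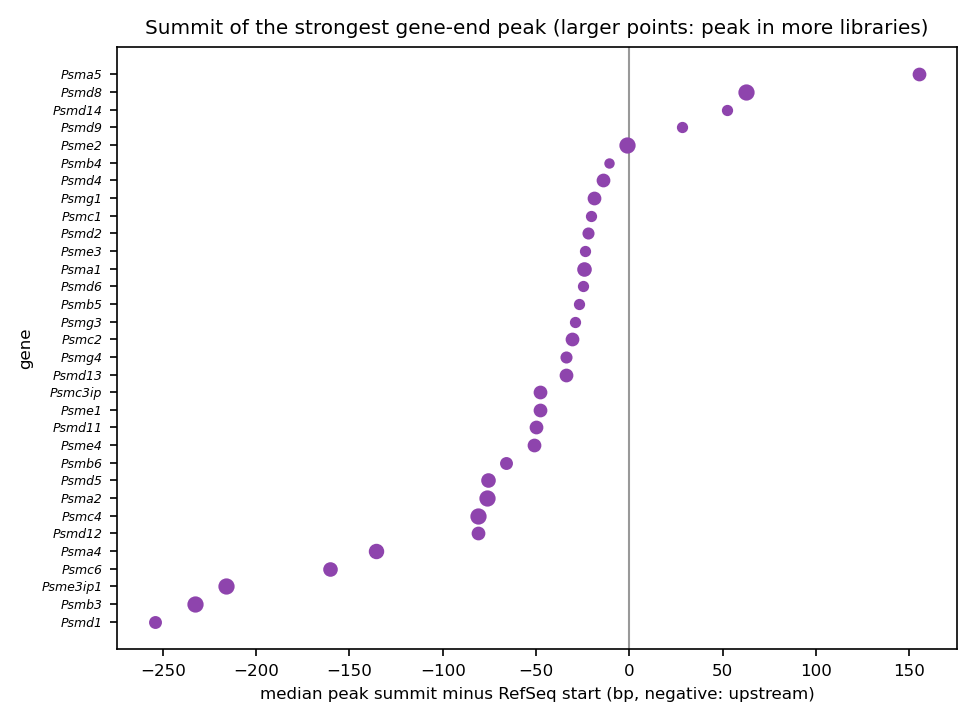
Median summit of the strongest gene-end peak relative to the nearest RefSeq start (horizontal axis, bp) for 32 members (rows), with larger points for members called in more of the 12 libraries. Psma3 and Psmb10, which lie beyond 400 bp, are not drawn, and the points run from Psmd1 at −254 bp to Psma5 at 155 bp, most of them upstream.

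Some of the regions lay between a member and a neighbouring gene. The peaks of 12 members also reached within 1 kb of an end of another gene, such as Mrpl32 for Psma2, Pcgf2 for Psmb3, Rnf31 for Psme2, Catsperg1 for Psmd8 and Rspry1 for Psme3ip1. These peaks cannot be assigned to either gene alone. In Control replicate 1 such sharing was found for 26.8% of members and 30.4% of other genes, and no peak served as the strongest of more than 1 member.

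Most proteasome genes had a gene-end peak in Control and MA9, fewer in ME and few in BN1. Each Control library called 41 of the 47 members. The MA9 libraries called 41, 39 and 40, the ME libraries 28, 24 and 26, and the BN1 libraries 10, 8 and 9. The groups did not overlap apart from Control and MA9. Counts of all protein-coding autosomal genes parted the groups too, so this separation was not particular to the members. They were 9042 to 9339 in Control, 9611 to 9803 in MA9, 5673 to 6101 in ME and 2205 to 3044 in BN1. The members' mean share over 3 libraries was 87.2% in Control. It was 19.1% ± 2.13 in BN1, 85.1% ± 2.13 in MA9 and 55.3% ± 4.26 in ME (SD, n = 3).

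Counted in all 3 libraries of a group, 41 members had a peak in Control, beside 43.0% of all protein-coding autosomal genes. The count was 39 in MA9 (background 45.4%), 22 in ME (26.9%) and 7 in BN1 (10.1%). Members thus had peaks more often than genes in general in Control, MA9 and ME. Genes of other large assemblies did so too. Of 77 cytosolic ribosomal protein genes, the shares in Control, MA9 and ME were 89.6%, 88.3% and 76.6%. Of 85 oxidative phosphorylation genes they were 82.4%, 83.5% and 48.2%. In BN1 the members' share was 14.9%, or 13.3% without the 2 that only share the prefix, near the background. The order of members across groups was that of the lengths of the lists, MA9 and Control apart. With 3 libraries against 3, an exact two-sided permutation test cannot give a p below 0.1, so the counts were not tested between pairs of groups.

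**Figure D2:**
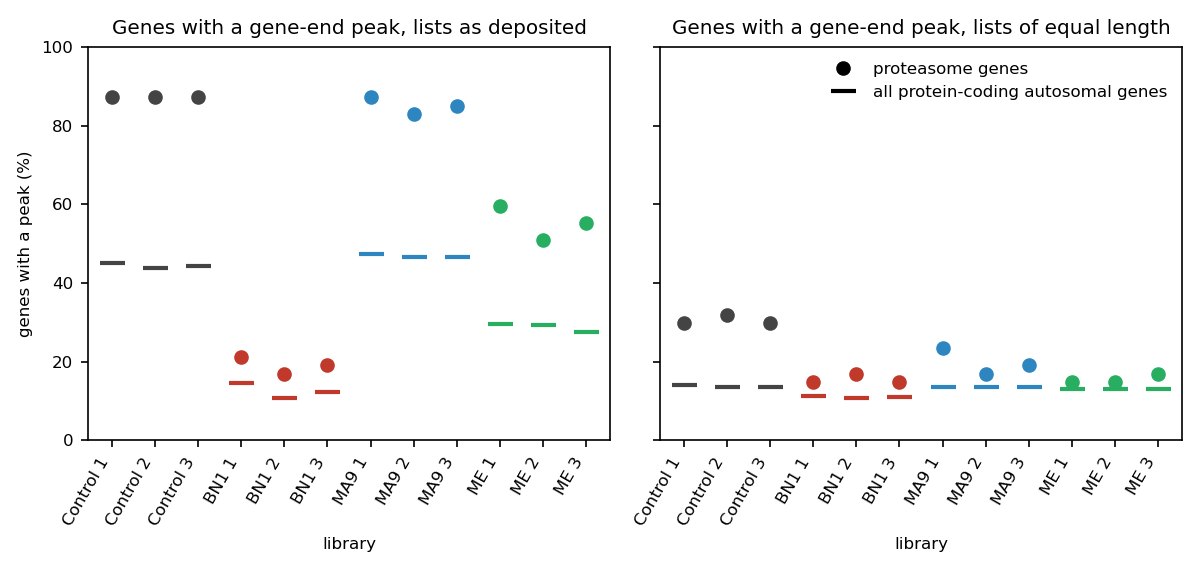
Share of genes with a gene-end peak (vertical axis, %) in each of the 12 libraries, for the proteasome genes (circles) and all protein-coding autosomal genes (dashes). On the left, with the lists as deposited, members stand at 87.2% in Control and 17.0% to 21.3% in BN1; on the right, with every list reduced to its 3011 strongest peaks, the 3 Control libraries hold 14 or 15 members and the leukaemic libraries 7 to 11.

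The median percentile of the called members was 80.6 to 84.1 in the Control libraries and 81.6 to 84.2 in MA9, near the medians of other called genes (78.2 to 79.4 and 80.9 to 81.5). In ME it was 44.6 to 56.5, below the 62.5 to 64.0 of other genes in each library. This was not particular to the members. Oxidative phosphorylation genes had medians of 46.1 to 57.1 in ME and 41.0 to 46.9 in BN1. Cytosolic ribosomal protein genes had 52.9 to 61.6 and 52.5 to 56.0. BN1 members stood at 49.8 to 55.2, beside 55.8 to 58.5 for other genes. Without Psmc3ip and Psme3ip1, which only share the prefix, the BN1 range was 34.4 to 46.8, and that in ME did not change. The members' peaks in ME were also narrow, with median widths of 262 to 275 bp beside 390 to 399.5 bp for other genes. In MA9 they measured 533 to 603 bp beside 637 to 703 bp, and in Control 519 to 603 bp beside 525 to 560 bp. In BN1, the shortest lists, they measured 340 to 369.5 bp beside 356 to 361 bp.

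**Figure D3:**
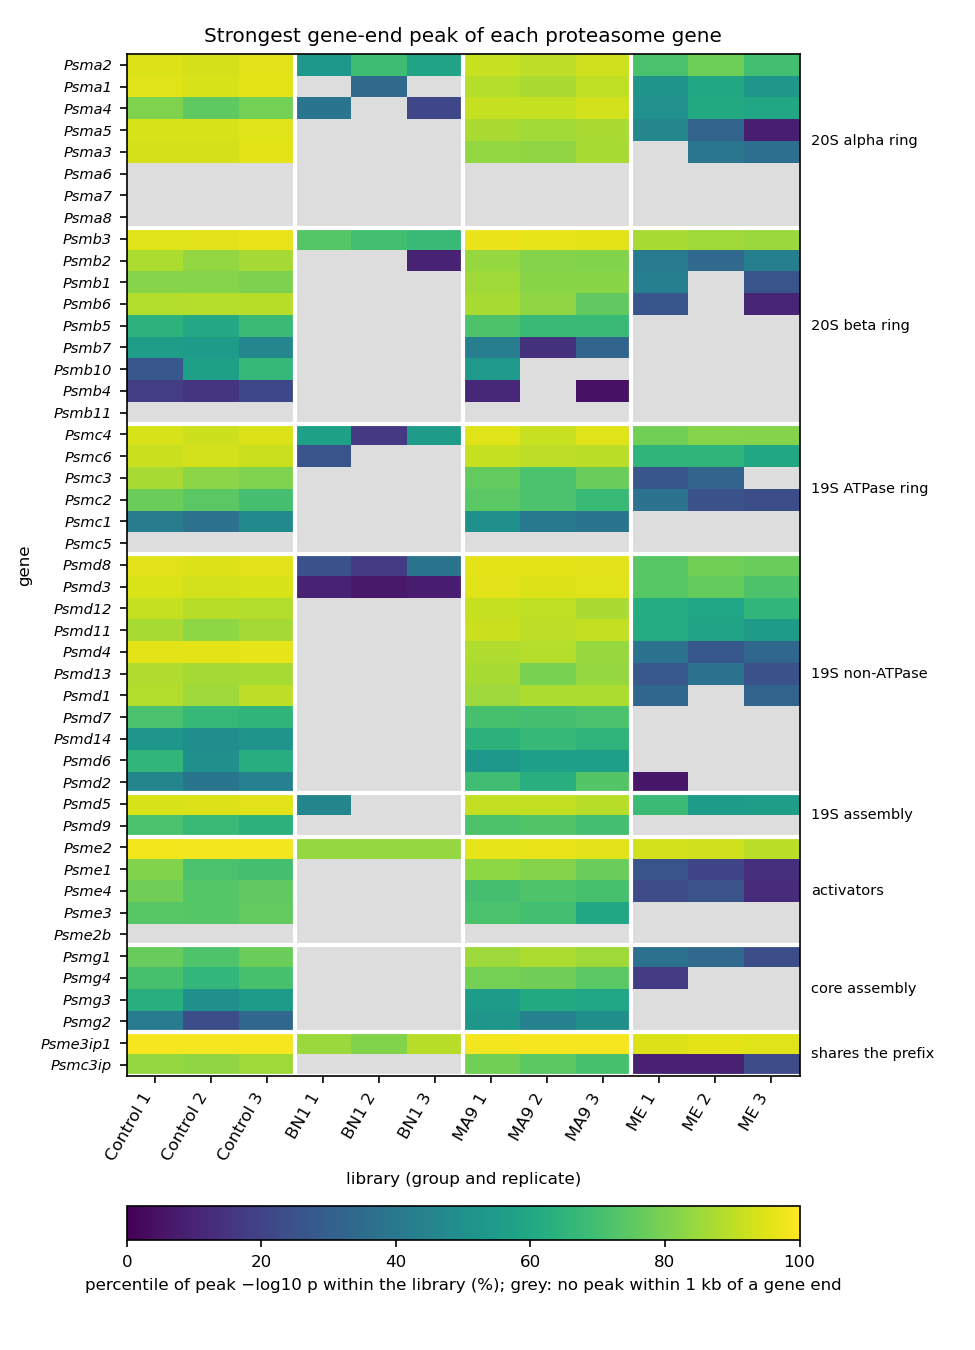
Percentile of the strongest gene-end peak of each of the 47 members (rows, by role) in each library (columns), from 0 (dark) to 100 (yellow), with grey where no peak was called. The 7 rows coloured in all 12 columns include Psma2, Psmb3, Psmc4, Psmd3, Psmd8, Psme2 and Psme3ip1, and the 3 BN1 columns are grey in most other rows.

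By role, the alpha-ring genes had a peak in all 3 libraries for 5 of 8 members in Control and likewise 5 in MA9, against 4 in ME and a single 1 in BN1. That 1 was Psma2, a structural alpha subunit. Its percentiles were 94.8, 93.5 and 95.6 in Control and 53.5, 68.8 and 58.3 in BN1. They were 91.6, 90.2 and 92.9 in MA9 and 71.3, 77.9 and 69.8 in ME, so that every library held the region. Psma1, another subunit of these rings, had percentiles of 95.1, 94.0 and 95.7 in Control, 88.7, 87.5 and 90.4 in MA9, and 51.7, 59.8 and 52.9 in ME. In BN1 it was called only in replicate 2, at 34.4.

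Psma4 was called in all libraries but BN1 replicate 2. Its percentiles were 80.5, 75.3 and 79.1 in Control and 91.1, 91.2 and 93.1 in MA9. In ME they were 50.8, 60.7 and 59.6, and in BN1 replicates 1 and 3 they were 38.5 and 21.2. Psma5, whose window is shown above, lacked a peak in BN1. It had percentiles of 93.9, 93.9 and 94.9 in Control, 87.3, 86.3 and 87.2 in MA9 and 46.3, 31.7 and 8.3 in ME. The upstream region of Psma3 was at 93.6, 93.7 and 95.8 in Control, 83.8, 83.4 and 86.8 in MA9 and 39.2 and 36.5 in ME replicates 2 and 3. Neither ME replicate 1 nor any BN1 library listed it.

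Psma6, Psma7 and Psma8 had no peak within 1 kb of a gene end in the lists used here. Psma8 is known as a testis form of an alpha subunit. For Psma6 this came from the gene model, which begins upstream of the start shown above. At RefSeq starts Psma6 was called in 12 of 12 libraries, at percentiles of 92.9, 93.9 and 92.3 in Control, 57.3, 20.9 and 66.7 in BN1, 97.8, 98.1 and 98.1 in MA9, and 88.7, 88.8 and 89.2 in ME. At its own RefSeq start Psma3 was called in all libraries except BN1 replicates 2 and 3.

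Beta-ring genes with a peak in all 3 libraries numbered 8 of 9 in Control and 6 in MA9, with 2 for ME and 1 for BN1. Psmb3, a subunit without catalytic activity, was the 1 in BN1. Its percentiles were 94.9, 95.7 and 96.6 in Control, 73.8, 69.8 and 67.3 in BN1, 97.2, 96.1 and 96.0 in MA9, and 86.9, 85.6 and 84.8 in ME. The genes of the 3 catalytic subunits of the constitutive core had no BN1 peak. Psmb5, the target of proteasome inhibitors, had percentiles of 64.5, 60.5 and 68.2 in Control and 72.0, 67.5 and 67.8 in MA9, and no peak in ME. Psmb7 was likewise restricted to Control (56.1, 54.8 and 46.3) and MA9 (42.9, 14.6 and 32.5).

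Psmb6, the third catalytic gene, stood at 88.5, 88.7 and 89.2 in Control and 86.9, 83.4 and 75.7 in MA9, with 26.9 and 10.5 in ME replicates 1 and 3. Psmb2 had a peak in all Control (84.0 to 87.8), MA9 (80.9 to 84.2) and ME (34.1 to 43.1) libraries and in BN1 replicate 3 (9.7). The non-catalytic Psmb1 was called in the Control and MA9 libraries and in ME replicates 1 and 3 (43.0 and 26.0). Psmb10, an inducible subunit of the immunoproteasome, was the member called in the fewest libraries of those with any peak. Its percentiles were 27.2, 57.0 and 66.5 in Control and 53.9 in MA9 replicate 1, with none elsewhere. The summit lay 272 bp downstream of the start in Control replicate 1. In Control replicates 2 and 3 and MA9 replicate 1 it lay 1273 to 1316 bp downstream. None of these peaks covered the start, so the values do not describe 1 common summit. Psmb4 was low throughout, at 18.2, 14.9 and 21.7 in Control and 11.3 and 5.0 in MA9 replicates 1 and 3. Psmb11, known from the thymus, had no peak.

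In the ATPase ring, which unfolds substrates, peaks in all 3 libraries were found for 5 of 6 genes in Control and in MA9, 3 in ME and 1 in BN1. Psmc4 was called everywhere. Its percentiles were 93.8, 92.5 and 94.6 in Control, 57.3, 16.7 and 55.2 in BN1, 95.3, 91.6 and 95.3 in MA9, and 78.8, 81.7 and 81.6 in ME. The deposited −log10 p behind these was 10.3 to 10.8 in Control and 6.41 to 7.30 in BN1. Psmc6 stood at 92.0 to 93.0 in Control, 89.8 to 91.3 in MA9 and 59.6 to 65.5 in ME, and was called in BN1 replicate 1 only (26.1).

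Psmc2 and Psmc3 had no BN1 peak, and their ME percentiles were 23.9 to 38.2 and, in replicates 1 and 2, 26.9 and 32.5. Psmc1 was called in Control (42.0, 37.3 and 47.7) and MA9 (50.3, 40.4 and 38.5) alone. Psmc5 had no peak in the lists used here.

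All 11 other cap subunits had a peak in every Control and MA9 library, and 6 of them in all 3 ME libraries. Only Psmd3 and Psmd8, both lid subunits, had one in BN1. Psmd8 had percentiles of 95.4, 94.7 and 95.3 in Control, 25.2, 17.4 and 38.4 in BN1, 96.0, 95.9 and 95.6 in MA9, and 73.8, 78.8 and 77.2 in ME. Psmd3 stood at 94.3, 93.3 and 93.8 in Control and at 95.5, 94.7 and 95.1 in MA9. It stood at 74.1, 76.5 and 71.9 in ME and at 9.8, 6.8 and 8.1 in BN1, near the bottom of those lists.

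Psmd4, the ubiquitin receptor, was the highest member in Control among those that no BN1 library listed. Its percentiles were 95.7, 96.0 and 96.4 in Control, 88.3, 88.8 and 84.5 in MA9, and 38.2, 27.4 and 33.6 in ME. Psmd12 and Psmd11, lid subunits, were the highest of the members with ME and without BN1 peaks, at 58.6 to 65.9 and 54.3 to 61.4 in ME. Psmd13 had 88.1, 86.3 and 87.0 in Control, 86.8, 79.7 and 84.3 in MA9 and 27.8, 38.0 and 24.9 in ME. The value of MA9 replicate 3 belongs to another peak, with its summit at −471 bp from the start. Psmd1 was at 85.4 to 89.9 in Control and 85.5 to 87.7 in MA9, and at 33.8 and 31.9 in ME replicates 1 and 3.

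A set of lid subunits was listed in Control and MA9 and in no ME or BN1 library. Psmd14, the deubiquitinase of the cap, had percentiles of 52.7, 49.2 and 51.6 in Control and 64.2, 67.1 and 65.0 in MA9. In MA9 replicates 2 and 3 these values belong to another peak, with summits 1091 and 1090 bp downstream of the start. Psmd7, the partner of Psmd14, had 71.4, 66.5 and 65.4 in Control and 71.0, 70.4 and 71.7 in MA9. Psmd6 had 65.9, 50.3 and 62.4 in Control and 53.4, 56.3 and 56.5 in MA9. The base subunit Psmd2 joined them apart from ME replicate 1 (5.9).

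Both cap chaperones had a peak in all Control and MA9 libraries. Psmd5 was at 94.0, 94.8 and 95.6 in Control, 91.0, 90.9 and 89.1 in MA9 and 68.3, 54.8 and 55.9 in ME, with 46.1 in BN1 replicate 1 alone. Psmd9 was at 71.4, 68.0 and 64.3 in Control and 72.2, 72.7 and 69.9 in MA9, with no other library.

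The activator Psme2, the inducible beta subunit of the PA28 ring, had the second highest mean percentile of all members. Its percentiles were 98.0, 98.3 and 98.4 in Control, 84.0, 84.2 and 84.1 in BN1, 96.4, 96.6 and 95.6 in MA9, and 93.3, 92.9 and 89.6 in ME. Psme3ip1 alone had a higher mean, with 98.6, 98.6 and 98.8 in Control, 84.9, 81.0 and 89.3 in BN1, 98.4, 98.5 and 98.6 in MA9, and 94.6, 95.8 and 95.04 in ME. These regions were at or above percentile 81.0 in each of the 12 lists. Psme1, the alpha partner of Psme2 in the ring, had percentiles of 80.9, 71.5 and 70.5 in Control, 83.1, 81.5 and 77.2 in MA9, 26.1, 20.7 and 13.99 in ME, and no BN1 peak. The nuclear activator Psme4 had the same set of libraries, and Psme3 was called in Control (74.2, 73.8 and 75.9) and MA9 (71.8, 69.7 and 59.9) only. Psme2b had no peak.

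No chaperone of the core had a BN1 peak. Psmg1 was called in Control (72.5 to 77.6), MA9 (85.2 to 87.7) and ME (23.9 to 37.5). Its partner Psmg2 was called in Control (41.3, 23.9 and 33.3) and MA9 (52.8, 44.1 and 49.8) only, as was Psmg3. Psmg4 also had a peak in ME replicate 1 (17.4). Psmc3ip was called in all libraries but those of BN1, with ME percentiles of 9.2, 9.2 and 22.7.

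Across roles, 7 members had a peak in all 12 libraries, 10 in all but BN1 and 10 in Control and MA9 only. Of all genes, 10.02% had a peak in all 12, 11.3% in any 9 libraries, 10.8% in any 6 and 49.0% in none. The members with none were 6 of the 47.

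Set pair by pair, 29 members had a peak in all 3 Control libraries and no BN1 library (background 27.7% of all genes), and 0 the reverse (0.00968%). For Control against ME these were 12 (13.2%) and 0 (0.281%), and for Control against MA9 0 (1.82%) and 0 (3.47%). These 3 comparisons share the Control libraries. Among the leukaemias, 27 members were listed in MA9 and not BN1 (30.0%), and 0 in BN1 and not MA9 (0.00484%). MA9 against ME gave 10 (14.9%) and 0 (0.0194%), and ME against BN1 gave 10 (11.6%) and 0 (0.0194%). No member was listed in a leukaemia and in no Control library, and leaving out MA9 replicate 1 gave 1 member, Psmb10, with Control and no MA9 peaks.

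These counts depend on how strong a region is, so members were set beside other genes of equal Control percentile, in deciles. Of 41 members with a peak in all 3 Control libraries, 7 kept one in all 3 BN1 libraries, where 10.5 would be counted at the rates of other genes in the same deciles (23.4% of all genes with Control peaks kept theirs). In ME 22 were kept beside 27.3 (61.5%), and in MA9 39 beside 39.1 (93.8%). In the ninth Control decile, 5 of 10 members were kept in BN1, beside 59.2% of others. Psmb3, Psmd3, Psma2, Psmc4 and Psmd8 were kept there, and Psma3, Psmd5, Psmd4, Psma5 and Psma1 were not. In the 4 lowest deciles 0 of 13 members were kept in ME, beside 14.2% to 45.6% of others. In the fifth decile 5 of 6 were kept there, beside 58.4% of others, with Psme3 as the exception. The exact 95% binomial interval of the kept count, which covers counting error only, was 2.93 to 13.1 in BN1, 34.2 to 40.8 in MA9 and 15.3 to 28.4 in ME. Each contained the count at the rates of other genes.

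Ranked by MA9 percentile instead, an alternative chosen after seeing the data, 7 of 39 members were kept in BN1 beside 6.44, and 22 in ME beside 25.2. The intervals were 2.94 to 13.1 and 15.5 to 28.2, and again contained the counts at other genes' rates. These intervals take all members as draws at a common rate, whereas the rates of other genes differed between deciles. They therefore cannot decide whether proteasome genes fell short at equal strength. In ME fewer members were kept under both rankings than at other genes' rates, and in BN1 under the Control ranking only.

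**Figure D4:**
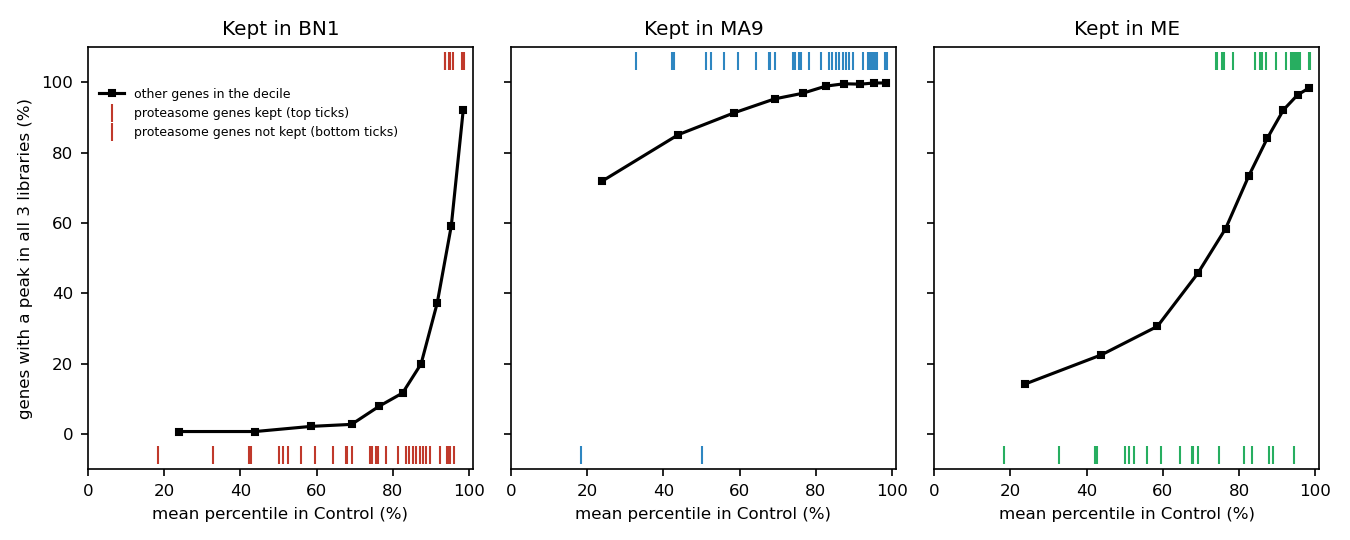
Share of other genes with a peak in all 3 libraries of a leukaemia (vertical axis, %) by mean Control percentile (horizontal axis, %), for genes with a peak in all 3 Control libraries in 10 bins. Ticks mark the 41 proteasome genes, at the top where kept and at the bottom where not: 7 are kept in BN1, 39 in MA9 and 22 in ME.

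To take out list length, every list was reduced to its 3011 strongest autosomal peaks, the length of the shortest. Control then held 14, 15 and 14 members, BN1 7, 8 and 7, MA9 11, 8 and 9, and ME 7, 7 and 8. Control lay above each leukaemic library. Counts of all protein-coding autosomal genes in these lists also put Control (2806 to 2896) above BN1 (2205 to 2330) and ME (2690 to 2703). For all genes Control overlapped MA9 (2803 to 2826). In all 3 lists of a group there were 13 members in Control (background 12.8%), 5 in BN1 (8.91%), 7 in MA9 (12.6%) and 7 in ME (12%).

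Of the strongest peaks, 4 members had one in all Control and no BN1 list (3.29%): Psma3, Psma5, Psmc6 and Psmd4. For Control and no MA9 list these were also 4 (2.69%), namely Psma1, Psma3 (by its upstream peak), Psma5 and Psmd4. For Control and no ME list they were 6 (3.12%), with Psmc6 and Psmd5 beside the latter 4. In the other direction there was Psma4 alone, in all MA9 and no Control list (2.63%) and in no ME list either (0.479%). Genes of other large assemblies showed the same order. Of 77 cytosolic ribosomal protein genes, 37 were in all 3 Control lists, 17 in BN1, 23 in MA9 and 21 in ME, and of 85 oxidative phosphorylation genes the counts were 22, 8, 12 and 12. Nothing particular to the proteasome was shown in this order.

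Strength was compared over all 4 groups with a rank score. In each library the 2205 genes with the strongest gene-end peaks, the number called in the shortest list, were scored from 100 downwards and all other genes 0. An exact permutation test over all ways to part 12 libraries into 4 groups of 3 was run on each of 3481 genes with a score in any library, with Benjamini-Hochberg adjustment over all of them. It called 62.7% of these genes at an adjusted p under 0.05. Of 14 members tested it called 8, or 57.1%, near the background, and 2 with all 20661 genes in the adjustment. The other 33 members never reached the scored ranks and were not tested.

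Psme2 had rank scores of 72.4, 78.6 and 77.6 in Control, 72.3, 81.1 and 77.8 in BN1, 43.6, 50.2 and 34.4 in MA9, and 71.5, 69.7 and 61.1 in ME. All MA9 libraries lay below all others (adjusted exact p = 0.00715). The Psme2 peak covered the start in every library, but its summit differed. It lay at −562 bp from the start in each Control library and at −40 to 35 bp in the leukaemias. The Control scores of Psme2 thus belong to another point of the region. Psma2, at adjusted exact p = 0.0146, scored 30.6, 21.7 and 40.5 in Control, 24.1, 63.5 and 43.4 in BN1, and 0 in each MA9 library. In ME it reached 9.0 in replicate 2 only, so Control and BN1 lay above MA9 and ME. Where all called genes were ranked, which lets list length in, BN1 instead lay below MA9 for both genes.

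Psmd3 and Psmd8 had another order, in which Control and MA9 lay above BN1 and ME without overlap. Psmd3 scored 24.4, 19.1 and 19.6 in Control and 30.5, 23.7 and 27.7 in MA9, beside 4.9 in BN1 replicate 2, 3.7 in ME replicate 2 and 0 in the other 4 libraries (adjusted exact p = 0.00745). Psmd8 scored 37.7, 34.1 and 37.3 in Control, 37.1, 40.3 and 34.4 in MA9, 0, 13.6 and 21.6 in BN1, and 0, 12.4 and 16.2 in ME (adjusted exact p = 0.0167). Without BN1 replicate 2 the adjusted p for Psmd8 was 0.062. Ranked by peak signal instead of −log10 p, the order of MA9 and ME turned for both genes.

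The remaining 4 had their highest scores in Control. Psmd4 scored 41.2, 48.8 and 51.2 there, Psma5 19.1, 26.0 and 32.0, and Psma3 16.4, 23.3 and 42.6, and these 3 scored 0 in all 9 leukaemic libraries. Psmd5 scored 21.0, 35.0 and 40.8 in Control and 14.4 in BN1 replicate 1. Each had an adjusted exact p of 0.0309. Psmd4, Psma5 and Psma3 entered the test through Control alone, the group where they are high. For such a gene the p of 0.0182 is set in advance, because 280 of the possible partitions keep the Control libraries together in this exact test. Their calls therefore add nothing to the scores. The call of Psmd5 was lost without Control replicate 3 (adjusted exact p = 0.0609), and that of Psma3 without BN1 replicate 1 (0.0515) or 3 (0.0564) or any 1 MA9 or ME library (0.0593 to 0.0599).

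The Psma3 score belongs to the peak upstream of its RefSeq start. Scored at RefSeq starts, Psma3 reached 32.2, 37.9 and 38.3 in Control, 36.5, 0 and 0 in BN1, 46.0, 47.1 and 38.6 in MA9, and 37.9, 40.04 and 38.3 in ME. The start of the gene thus had its highest mean in MA9, and ME overlapped both Control and MA9. Psma6, which is measured at starts only, scored 8.72, 26.4 and 3.18 in Control, 29.04, 17.1 and 53.0 in BN1, 64.8, 71.6 and 71.01 in MA9, and 51.2, 52.5 and 59.7 in ME. All MA9 libraries lay above all others, and Control lay below MA9 and ME, a pattern noticed in the values. At RefSeq starts the rank-score test was run on 14 members, Psma6 among them, and passed by 8, beside 63.4% of tested genes. The result for Psma6 alone is not given here.

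Members that did not pass included Psme3ip1, the one with the highest mean percentile. It scored 73.9 to 85.5 over the 12 libraries, with overlap of all groups (adjusted exact p = 0.607). Psmc4 scored 0 to 40.0 (adjusted exact p = 0.933). Psmb3 scored 32.3, 45.5 and 53.5 in Control and 54.4, 64.7 and 55.0 in BN1 (adjusted exact p = 0.158). For Psma1, Psma4 and Psmc6 the adjusted p was 0.0569, 0.222 and 1.

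**Figure D5:**
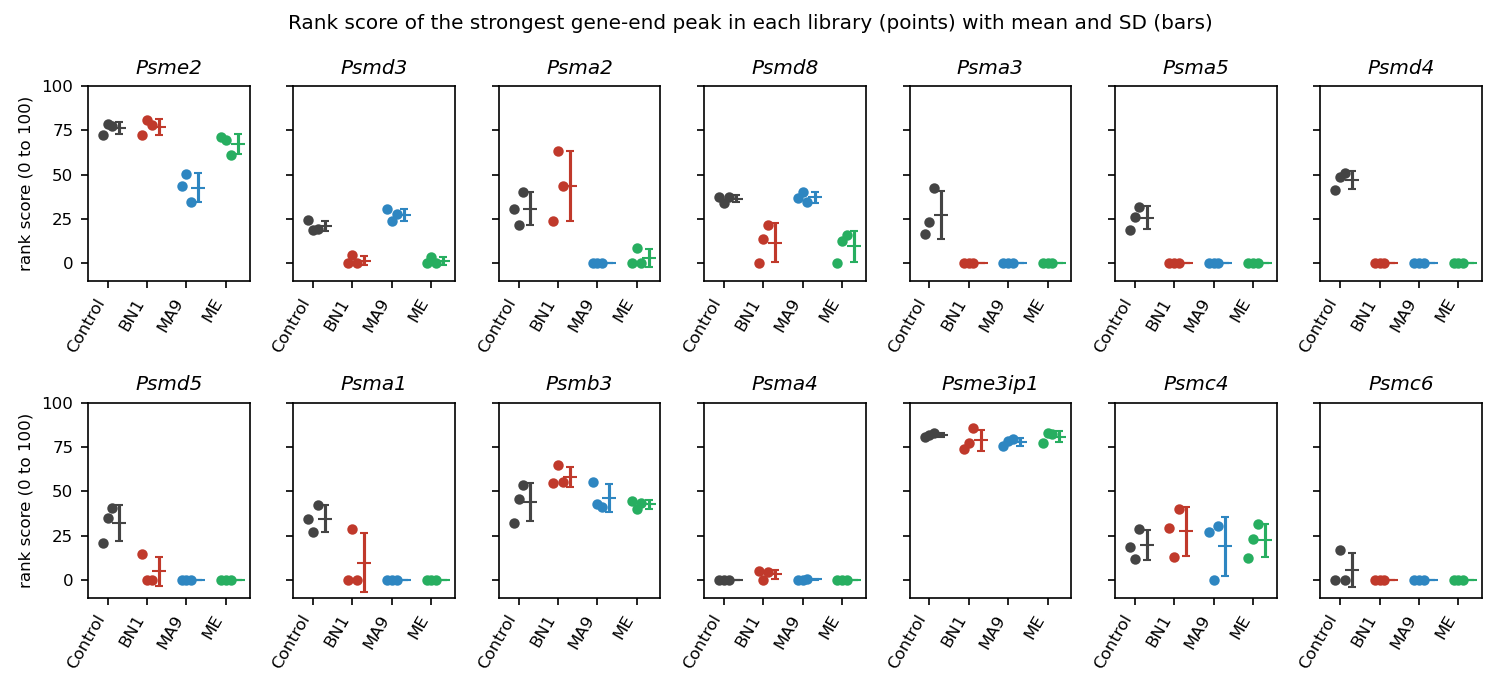
Rank scores (vertical axis, 0 to 100) of the 14 tested members in each library, by group (points) with the mean and SD of 3 libraries (bars), ordered by adjusted p. Psmd4, Psma5 and the upstream peak of Psma3 are above 0 in Control only, Psme2 is lowest in MA9, and Psma2 is at 0 in MA9.

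Other genes of the ubiquitin-proteasome pathway were taken from a list of 34, of which 33 were measured. A peak in all 3 libraries was found for 31 in Control (43.0% of all genes), 12 in BN1 (10.1%), 31 in MA9 (45.4%) and 26 in ME (26.9%). In Control and no BN1 library there were 12 (27.7%), and in Control and no ME library 3 (13.2%). The rank-score test was run on 19 and passed by 14, not far above the 62.7% of all tested genes. Of these, 8 had their highest mean score in Control, and 6 had their lowest there, Ube3c jointly with BN1. Among the 8, Rps27a and Ufd1 scored in Control alone, so their p was set in advance and their calls add nothing to the scores. Psmb9 and Tap1 share a peak and are counted as separate genes in these numbers.

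Ubb, a ubiquitin gene, had mean scores of 96.1 in Control, 80.8 in BN1, 77.3 in MA9 and 74.9 in ME (adjusted exact p = 0.0309). Nfe2l1 encodes the transcription factor that raises proteasome gene expression when the proteasome is inhibited. It was called in all 12 libraries, with mean scores of 95.1, 59.9, 76.6 and 66.6 in the same order of groups (adjusted exact p = 0.0309). Its relative Nfe2l2, a regulator of the oxidative stress response, was lowest in Control, at 60.01 and then 77.0, 87.7 and 90.1 in BN1, MA9 and ME (adjusted exact p = 0.00502).

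Rad23b, a shuttle that carries ubiquitinated proteins to the proteasome, scored 0 in Control and 86.7, 81.4 and 88.4 in the leukaemias (adjusted exact p = 0.00628). Zfand5, a proteasome activator, scored 0, 66.7, 84.5 and 93.2 (adjusted exact p = 0.00972). Ube3a, a ubiquitin ligase, scored 0, 53.2, 40.8 and 41.7 (adjusted exact p = 0.0130). These 3 thus ranked higher in each leukaemia than in Control, while having Control peaks at percentiles of 84.2 to 89.0 that lay outside the scored ranks.

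Both catalytic genes left out of the members are inducible subunits of the immunoproteasome. Psmb9 shares its peak with Tap1, the peptide transporter gene beside it, and had mean scores of 44.9 in Control, 3.61 in BN1, 1.78 in MA9 and 2.03 in ME (adjusted exact p = 0.0309). Psmb8 was called in Control (69.5, 69.4 and 71.7) and MA9 (79.4, 80.7 and 80.7), and in ME replicate 1 (22.3). Pomp, the maturation factor of the core, was called in Control (37.3, 23.9 and 29.0) and MA9 (7.97, 9.81 and 32.5) only.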

How the data were processed

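Each of the 12 ATAC-seq libraries had 1 deposited list of called peaks on mm10 (GRCm38), and no pooling of libraries is stated. The submitters' processing notes name Genrich, deepTools 3.5.1, Picard 3.2.0 and Bowtie2 2.5.4, without roles or options. The deposited columns, in the narrowPeak layout, are a score (not used), a signal, a −log10 p-value and a −log10 q-value per peak as the authors' caller gave them. They depend on the depth of each library, which is unknown, so the −log10 p was turned into a percentile within the list. No list had a signal under 200.005, and peaks off the autosomes were left out.

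Genes came from RefSeq (GRCm38.p6). A peak counted for a gene when any base lay within 1 kb of a gene end. Groups were taken from the sample titles. Members, roles, pathway genes, markers and motifs were chosen with earlier results of these data known. Values per library are given for members past the test over 4 groups, the 5 with the highest mean percentile and those that separate groups, and other members by range and counts. Pathway genes are named where they passed, up to the 6 with the highest mean percentile, with Psmb8, Psmb9, Nfe2l1 and Pomp always named. Paaf1 was not matched. The test was an exact permutation test with Benjamini-Hochberg adjustment, tested on simulated data, in Python 3.11.15 with numpy 2.4.6 and pandas 2.3.3. Alternatives were the window, the summit, gene starts, stricter or equal-length lists, ranking by signal, the replicate block and leaving out each library. The replicate numbers were not taken as pairs in the main test, and whether they pair the libraries is unknown.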

Additional observations from a re-analysis of the deposited data

How the results depend on the processing

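Among recomputed values that answer a comparison, 380 stayed near the value reported and 20 did not. Many of the 380 could not change, because leaving out a library does not alter counts that only use other groups. They are therefore no measure of stability. For the single members past the rank-score test, 140 recomputed results kept the call and 26 lost it. In 4 more the order of the highest and lowest group was reversed. Counts were taken as near within 1.5 times. For kept members minus those counted at other genes' rates, the limit was 50% of the width of an exact 95% binomial interval. With the weaker 50% of each list left out, members with a peak in all 3 libraries numbered 4 in BN1 and 13 in ME, those in Control and no ME library 21, in MA9 and no ME library 23 and in MA9 and no Control library 1, and 1 member passed the rank-score test. With lists of equal length, 13 members remained in Control, 7 in MA9 and 7 in ME, and the separated members were 4 for Control and no BN1, 4 for Control and no MA9, 6 for Control and no ME, 0 for MA9 and no BN1, 1 for MA9 and no Control, 1 for MA9 and no ME and 0 for ME and no BN1. With all called genes ranked in each library, so that list length enters, 41 members passed, and the order of BN1 and MA9 turned for Psma2 (adjusted p = 0.00114) and Psme2 (0.000981, both by exact permutation). Ranked by peak signal, the order of MA9 and ME turned for Psmd3 (0.0103) and Psmd8 (0.0271). With all genes in the adjustment 2 members passed, because more genes were tested. Beyond these alternatives the causes were not tested.

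Leaving out each library gave 41 members with a peak in all Control libraries each time, 7 to 8 in BN1, 39 to 40 in MA9 and 22 to 25 in ME. It gave 29 to 31 in Control and no BN1, 0 to 1 in Control and no MA9 and 12 to 14 in Control and no ME. Among the leukaemias it gave 27 to 29 in MA9 and no BN1, 10 to 12 in MA9 and no ME and 10 to 13 in ME and no BN1. The kept members minus those counted at other genes' rates ranged from −4.36 to −3.16 in BN1, −0.227 to 0.759 in MA9 and −5.60 to −2.48 in ME, and 7 to 9 members passed the rank-score test. With the replicate block, in which libraries were permuted only within a replicate number, 2 members passed, Psmd3 (0.0325) and Psme2 (0.0296). Libraries of equal number correlated at −0.051 to 0.109 over 18 pairs, and 6 of 12 were closest to their own number. Libraries of different number correlated at −0.126 to 0.0941, an overlapping range, so these values cannot decide whether replicates were paired. The numbers are not taken as pairs in the main test. Unknown depth limits every absent peak to not called, and 3 libraries a group to the tests given.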
